A study of Drosophila melanogaster with 14 samples.

Results

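Motor proteins that walk along microtubules, and the particles that carry cargo inside cilia, were examined as a group of 41 genes of 17807 in a count table of Drosophila melanogaster wing discs, the sheets of larval epithelium from which adult wings arise. The 41 were listed by name, with earlier results of these data known: kinesin and dynein genes and genes of intraflagellar transport. All 41 have a row in the table. RNA was sequenced from discs of wandering larvae of the third instar, 3 libraries from yw larvae, called wildtype here, and 3 from yw;nub[1] larvae, called nub1, which carry an allele of the POU domain gene nubbin. The yw markers are shared by both groups, and the labels say neither how many discs went into a library nor whether libraries came from separate crosses, so the spread that p-values rest on may be technical. The discs are bulk tissue, in which fewer cells of a type and less RNA per cell cannot be told apart.

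Kinesins and dyneins turn ATP into steps along microtubules, kinesins mostly toward the plus end and dyneins toward the minus end. One set of kinesins builds the mitotic spindle and the cleavage furrow, another carries vesicles and organelles, and cytoplasmic dynein returns cargo to the cell centre. Cilia need a set of their own: kinesin-2 carries intraflagellar transport (IFT) particles to the tip, the dynein made by btv brings them back, and axonemal dyneins make the cilium beat or twitch. In flies cilia are built mainly by sensory neurons and by the male germline, while most epithelial cells, those of the wing disc included, divide and carry cargo without one. For the comparison the genes were split by these roles into 12 mitotic kinesins, 10 transport motors, 15 ciliary genes and 4 other kinesins. The split too was made with earlier results known, so counts and medians by class are a description.

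Library depth ran from 58434785 to 83448836 counts, and levels are given as CPM, the count relative to library depth after TMM scaling. They are not divided by transcript length, so levels of different genes are not compared. The labels were checked on nub itself, which was 329 ± 12.2 CPM in wildtype against 10.9 ± 3.09 CPM in nub1 (SD, n = 3). Its neighbouring paralog pdm2 was 57.1 ± 0.394 CPM in wildtype against 0.107 ± 0.0426 CPM in nub1 (SD, n = 3). The genotype label does not name pdm2. The nub1 libraries were thus low in both genes, and their separate parts were not tested. Among nub1 libraries replicate 3 stood apart, differing from replicates 1 and 2 by 31.7 and 24.5 chi-square per degree of freedom where those differed from each other by 4.09. Pairs of wildtype libraries differed by 15.3 to 17.4, so nub1 replicates 1 and 2 were also unusually close. With nub1 replicate 3 left out, 7 of the 41 genes were called higher and 8 lower, where all 6 libraries give the 9 and 10 described next.

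Mitotic kinesins rose or were not called, ciliary genes fell or were not called, and 2 of 10 transport motors fell by small amounts. Of the 41 genes, 35 passed the filter on low counts, 9 rose and 10 fell (edgeR quasi-likelihood test, adjusted p under 0.05). Among all 9186 genes tested 24.4% were called higher and 23.9% lower, 48.3% in all, so the share called in the whole group was near this background. With library size as the only scaling 12 rose and 7 fell. Groups did not overlap in 11 genes with nub1 above and 13 with nub1 below, beside 29.7% and 30.3% of all genes tested. Among mitotic kinesins 7 of 11 tested rose and 0 fell, among transport motors 0 of 10 rose and 2 fell, and among ciliary genes 0 of 11 rose and 7 fell. The median log2 fold change, nub1 over wildtype, was 0.19 for mitotic kinesins, -0.017 for transport motors and -0.33 for ciliary genes, beside -0.003 over all genes tested. At an unadjusted p under 0.05, 0 mitotic kinesins fell, 1 transport motor rose and 1 ciliary gene rose, and DESeq2 called 0 in each of these cases. Oseg5 and Klp54D passed the filter through the wildtype libraries alone, so they had to be lower in nub1. Without them 6 of 10 ciliary genes tested fell, with a median of -0.32, and 8 of all 33 fell.

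**Figure D1:**
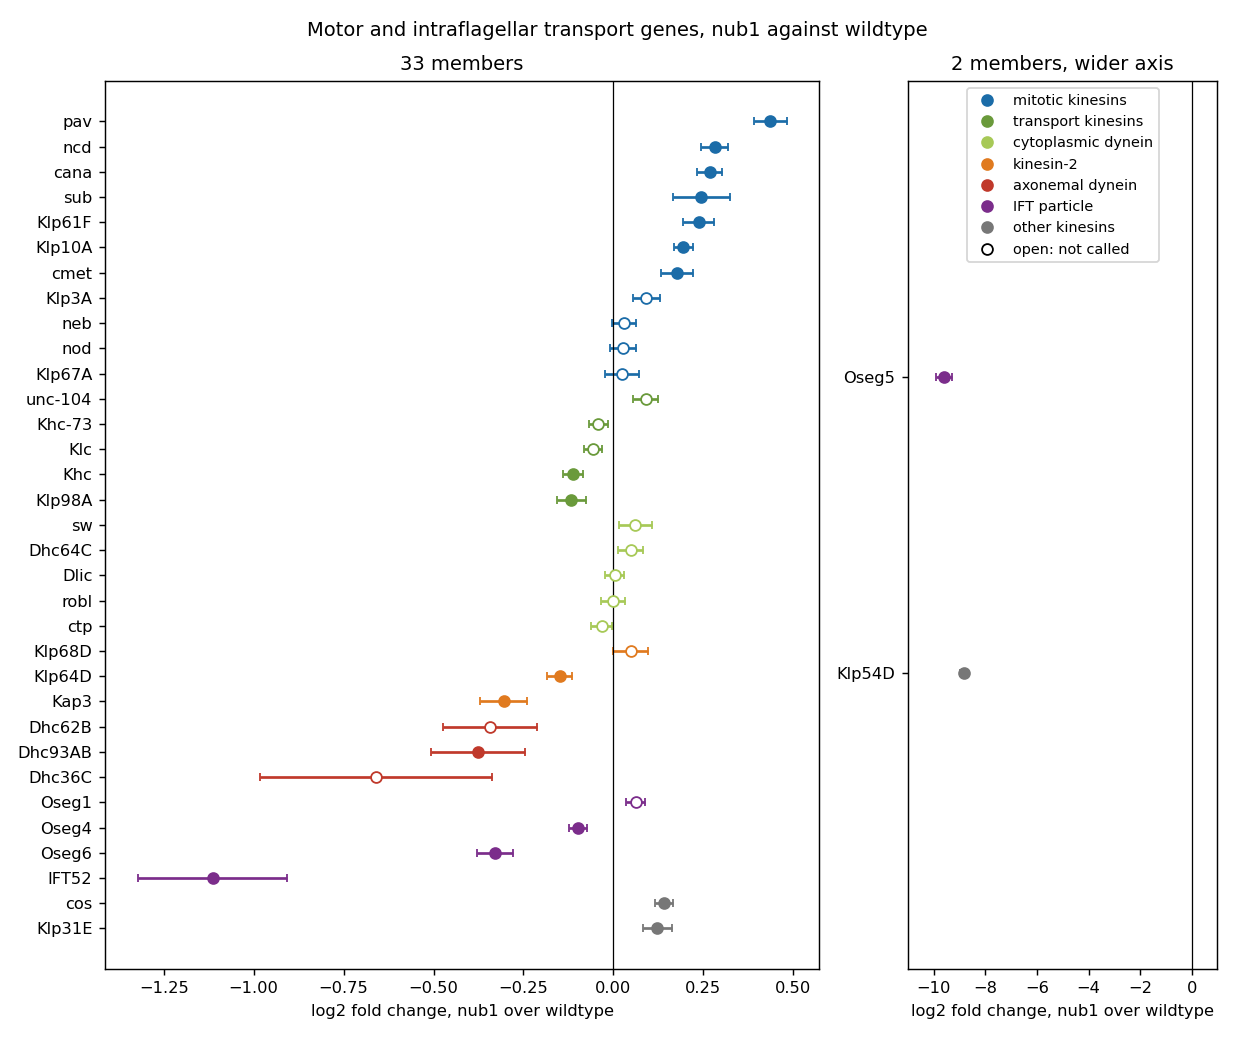
Log2 fold change of each tested gene in nub1 over wildtype discs (x axis) with its standard error, coloured by class, filled where called at adjusted p under 0.05 and open where not; the right panel has a wider axis for Oseg5 and Klp54D. All 11 mitotic kinesins lie right of 0, 9 of 11 ciliary genes lie left of it (Oseg5 in the right panel), and the 5 cytoplasmic dynein genes lie on or near it.

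Cilium genes included the largest changes of the group. Oseg5 (FBgn0032891; dm6 arm 2L, 20832849 to 20835840), a gene of the IFT-B particle that works on the outward leg, had 642, 712 and 911 counts in the wildtype libraries, in replicate order, and 0, 3 and 0 in the nub1 libraries. Scaled to depth these were 10.4, 12.5 and 11.1 CPM in the wildtype libraries (replicates 1 to 3) and 0, 0.0391 and 0 CPM in the nub1 ones. Its counts were thus near absent from every nub1 library, 882-fold lower over the group with a 95% counting interval of 301 to 4278 (edgeR adjusted p = 1.61e-07). Klp54D (FBgn0263076; dm6 arm 2R, 17557031 to 17563406), a kinesin that was put in none of the 3 role classes, behaved alike in size: 773, 739 and 968 counts in wildtype against 2, 1 and 3 in nub1 libraries. It was 483-fold lower, with an interval of 221 to 1316 (edgeR adjusted p = 1.32e-09), and no nub1 library came near a wildtype one. Intervals cover counting error only, and reads without molecular identifiers are not independent molecules. Because Oseg5 and Klp54D passed the filter through the wildtype libraries alone, their direction was fixed, and their p-values and intervals are given as a description.

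IFT52 (FBgn0031829; dm6 arm 2L, 6555717 to 6557502), a core gene of the IFT-B particle, was the other gene to fall by more than 2-fold, from a low level of 0.942, 1.12 and 1.2 CPM in the wildtype libraries (replicates 1 to 3) and 0.372, 0.612 and 0.517 CPM in the nub1 ones. No nub1 value reached a wildtype one (log2 fold change -1.11 ± 0.21, SE; edgeR adjusted p = 0.00231). Falls of at least 2-fold were called in 4.74% of all genes tested and in 3 of these 35, and rises of that size in 5.51% and in 0 of 35. Without Oseg5 and Klp54D, whose direction the filter fixed, the falls were 1 of 33. All 3 genes lie on chromosome 2, which also carries nub; on arms 2L and 2R 5.69% and 5.68% of tested genes fell by at least 2-fold, against 4.93%, 4.1% and 3.5% on 3L, 3R and X. With IFT52 as the 1 fall not fixed by the filter, nothing is read from this, and the part of the chromosome was not tested.

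Among the tested neighbours of Oseg5 and Klp54D reported here, none fell as far as they did. The genes directly beside Oseg5, CG31674 and Spn38F, were near 0 in wildtype discs too, so a fall there could not be seen. Of the 5 genes on either side of Oseg5, 4 were tested: CG9331 fell a little (from 99.2 to 88.5 CPM), and CG31673 (from 20.2 to 20.2 CPM) and CheB38c (from 0.174 to 0.279 CPM) were not called. CG31676 rose from 0.108 to 8.57 CPM, by 6.33 ± 0.24 (SE) on the log2 scale (edgeR adjusted p = 2.57e-07). CG31676 begins 4909 bases beyond the end of Oseg5, so within one short stretch of 2L a gene almost silent in nub1 lies close to one almost silent in wildtype. Of the neighbours of Klp54D reported here 5 were tested, of which 4 were not called. Cc2d2a, itself a gene of the ciliary transition zone, fell at a low level (from 0.37 to 0.197 CPM; edgeR adjusted p = 0.0131). On one side of Klp54D the next gene, MESR4, 741 bases away, was not called (from 191 to 188 CPM). On the other, CG43324, 199 bases away, was at 0.069 and 0.0639 CPM in wildtype and nub1 discs and was not tested. Only 11 bases of Oseg5 overlap another annotated gene, CG31674, which was at 0.0785 and 0.0852 CPM in wildtype and nub1 discs.

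**Figure D2:**
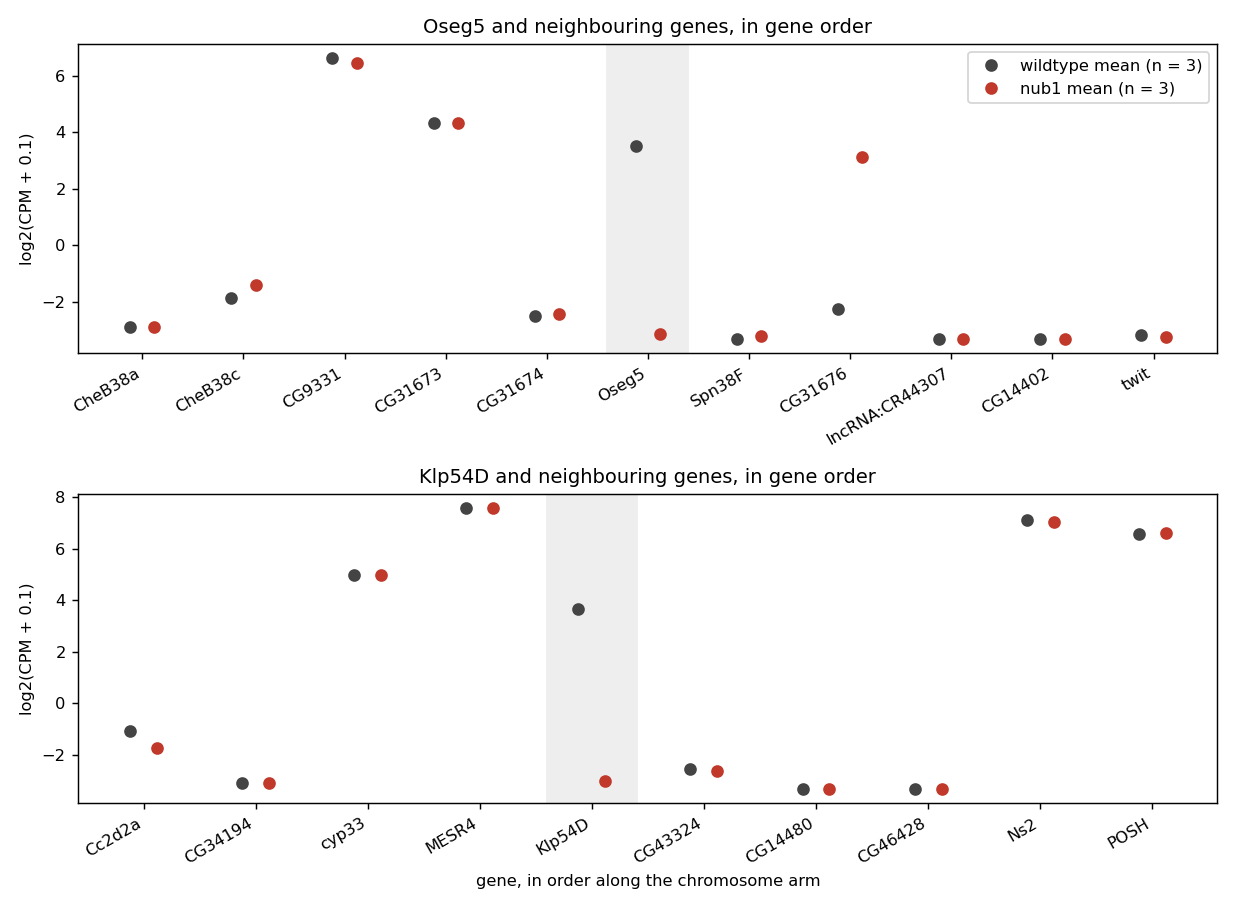
Mean level of Oseg5 (top) and Klp54D (bottom, shaded column in each) and of genes on either side, in order along the chromosome arm, as log2 of CPM plus 0.1 (y axis) in wildtype and nub1 discs. Oseg5 drops from 11.3 to 0.013 CPM while CG31676 rises from 0.108 to 8.57 CPM, and Klp54D drops from 12.4 to 0.0253 CPM beside neighbours of which Cc2d2a, from 0.37 to 0.197 CPM, is the 1 called.

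Genes of the IFT-A particle, which works on the return leg, differed by less. Oseg6 (FBgn0034452; dm6 arm 2R, 19487046 to 19491846) was 18.4, 16.9 and 18.5 CPM in the wildtype libraries (replicates 1 to 3) and 14.4, 14.6 and 13.9 CPM in the nub1 ones, with no overlap between the groups (log2 fold change -0.33 ± 0.049, SE; edgeR adjusted p = 0.000681). Oseg4, with the highest CPM of the ciliary genes, was 71.2, 73.3 and 72.2 CPM in the wildtype libraries (replicates 1 to 3) and 67.8, 67.3 and 67.3 CPM in the nub1 ones; it fell by 6.59%, with no overlap between groups (edgeR adjusted p = 0.0107), a call lost when libraries were scaled by size alone (edgeR adjusted p = 0.0608). The particle gene Oseg1 went from 57.2 to 59.7 CPM and was not called (edgeR adjusted p = 0.076), though it was called higher with library size only and with the upper quartile (edgeR adjusted p = 0.0232 and 0.0304). Ratios within a library do not depend on the scaling. The count of Oseg6 over that of Oseg1 was 0.321, 0.300 and 0.32 in wildtype and 0.24, 0.243 and 0.235 in nub1, in replicate order, and that of Oseg4 over Oseg1 was 1.24, 1.3 and 1.25 in wildtype and 1.13, 1.12 and 1.13 in nub1, in replicate order. Each ratio was lower in all 3 nub1 libraries. The ratios were chosen after the values were seen and are given without a test. Part of Oseg1, 975 bases, overlaps Exo70, which fell, and 115 bases of Oseg4 overlap drpr, which fell too; whether reads were assigned by strand is not stated, so such pairs may share reads. In all, 19 of the 41 genes overlap another annotated gene, 8 of them called.

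Kinesin-2, the outward motor, is built from the motor subunits of Klp64D and Klp68D and the accessory subunit of Kap3, and also moves cargo in axons. Kap3 (FBgn0028421; dm6 arm X, 11334187 to 11340084) fell by 19.1%, with 56.2, 59.5 and 52.4 CPM in the wildtype libraries (replicates 1 to 3) and 48, 46.6 and 41.5 CPM in the nub1 ones (log2 fold change -0.31 ± 0.065, SE; edgeR adjusted p = 0.00623). The lowest wildtype value lay above the highest nub1 value. Klp64D fell by 9.82%, from 22.8 to 20.6 CPM (edgeR adjusted p = 0.00746), whereas Klp68D was 12.3 ± 0.257 CPM in wildtype against 12.7 ± 0.513 CPM in nub1 (SD, n = 3) and was not called (edgeR adjusted p = 0.454). Within libraries the count of Kap3 over that of Klp68D was 4.48, 4.89 and 4.35 in wildtype and 3.74, 3.85 and 3.17 in nub1, in replicate order, and that of Klp64D over Klp68D was 1.84, 1.86 and 1.87 in wildtype and 1.58, 1.71 and 1.58 in nub1, in replicate order, lower in all 3 nub1 libraries in both cases. These ratios too are a description without a test.

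The heavy chains of axonemal dynein, the motors of moving cilia, were scarce. Dhc93AB was 4.63 ± 0.478 CPM in wildtype against 3.56 ± 0.555 CPM in nub1 (SD, n = 3) and fell (log2 fold change -0.38 ± 0.13, SE; edgeR adjusted p = 0.0408), but the call ended with any of 4 libraries left out (edgeR adjusted p = 0.129 leaving out wildtype replicate 1, 0.116 leaving out wildtype replicate 2, 0.0714 leaving out nub1 replicate 2 and 0.097 leaving out nub1 replicate 3). Dhc62B was 2.73 ± 0.438 CPM in wildtype against 2.15 ± 0.0422 CPM in nub1 (SD, n = 3) and was not called (edgeR adjusted p = 0.0573). It was called without wildtype replicate 1 and with the replicate block (edgeR adjusted p = 0.0214 and 0.0445). Dhc36C, with 12 to 28 counts a library, was at -0.66 ± 0.32 on the log2 scale (edgeR adjusted p = 0.121). In each of the 3 the highest nub1 value was under the lowest wildtype value, as it was in 30.3% of all genes tested. Of the ciliary genes 4 were too low to test. The retrograde dynein gene btv had 2 counts in each wildtype library and 1, 1 and 0 in nub1 replicates 1 to 3, nompB had 0 to 2 counts a library, Oseg2 4 to 11, and IFT57 had 1 count in all, in nub1 replicate 3. Of the length of btv, 57.9% lies over CG5674, which was at 117 and 124 CPM in wildtype and nub1 discs. How reads there were assigned is not stated, so the count of btv may be affected. At this depth, where 3 counts are the limit that a count of 0 allows in a library, no difference was detectable for btv, nompB and IFT57. Oseg2, with 25 counts over the wildtype libraries and 22 over the nub1 ones, did not pass the filter. Also too low were Klp59C, a mitotic kinesin with 1 count in all, and its relative Klp59D, with 0 counts in all 6 libraries.

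From a list of 25 other genes of cilia, 23 were in the table and 11 were tested. Of these 2 rose and 4 fell, a share called near the 48.3% of all genes tested, with a median log2 fold change of -0.20. The basal body gene unc fell from 5.55 to 3.02 CPM (edgeR adjusted p = 4.26e-05), BBS8 fell from 3.39 to 2.32 CPM and Cc2d2a from 0.37 to 0.197 CPM. BBS4, like BBS8 a gene of the BBSome that moves membrane cargo in cilia, rose from 0.387 to 0.784 CPM (edgeR adjusted p = 0.00186). Rfx, the transcription factor known to drive genes of cilia in fly sensory neurons, rose from 20.6 to 22.6 CPM (edgeR adjusted p = 0.0201). IFT43, of the IFT-A particle, fell from 10.6 to 9.05 CPM (edgeR adjusted p = 0.0136); it starts 7565 bases beyond the end of pdm2. Rfx and IFT43 were picked out after their values were seen. The IFT-A gene rempA (from 6.29 to 6.49 CPM) was not called.

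Markers of ciliated and other cells were read in the same libraries. Their counts of called genes stand beside 24.4% called higher and 23.9% called lower over all genes tested, and the lists are too short to compare with these shares. The 7 markers of ciliated sensory neurons summed to 1.05 to 1.43 CPM in wildtype and 1.69 to 2.23 CPM in nub1 libraries, with the channel genes nompC and nan and the genes nompA and eys near 0 in all. Of 3 tested, the proneural gene ato rose from 0.729 to 1.51 CPM, and cato and iav were not called. Without ato the other 6 summed to 0.455 to 0.519 CPM in wildtype and 0.435 to 0.538 CPM in nub1 libraries. The 8 neuron markers summed to 58.3 to 64.9 CPM in wildtype and 56.4 to 59.6 CPM in nub1 libraries, most of it elav and futsch. Of 6 tested, 2 rose, among them Syt1 (from 0.578 to 1.23 CPM), and 3 fell, futsch (from 18.7 to 13.8 CPM), Rbp9 (from 1.29 to 0.821 CPM) and brp (from 0.233 to 0.0811 CPM). For the testis and germline 9 of 10 markers were in the table and summed to 1.05 to 1.64 CPM in wildtype and 1.08 to 1.31 CPM in nub1 libraries, with sa and dj at 0 in all 6 libraries. Of 4 tested, can rose from 0.0503 to 0.245 CPM and vas fell from 0.827 to 0.474 CPM. Glia markers summed to 616 to 639.6 CPM in wildtype and 620.2 to 637 CPM in nub1 libraries, with nrv2 and moody rising and Gli and repo falling. Most of this sum was Gli (from 320 to 263 CPM) and nrv2 (from 217 to 278 CPM). At a far lower level repo went from 0.233 to 0.0478 CPM, a fall that the sum cannot show. Of 6 myoblast markers, which summed to 504 to 559 CPM in wildtype and 393 to 433 CPM in nub1 libraries, htl and twi rose and Ama and Him fell. Ama, the largest part of that sum, went from 309 to 174 CPM, so the lower sum rests on this gene. Among the others htl went from 30.6 to 48.9 CPM and Him from 17.7 to 11.6 CPM, and Mef2 and zfh1 were not called. Haemocyte markers summed to 39.8 to 75 CPM in wildtype and 62.7 to 67.2 CPM in nub1 libraries, NimC1 rising and srp, eater and He falling. The part of these cells in the changes of the motor genes was not tested.

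**Figure D3:**
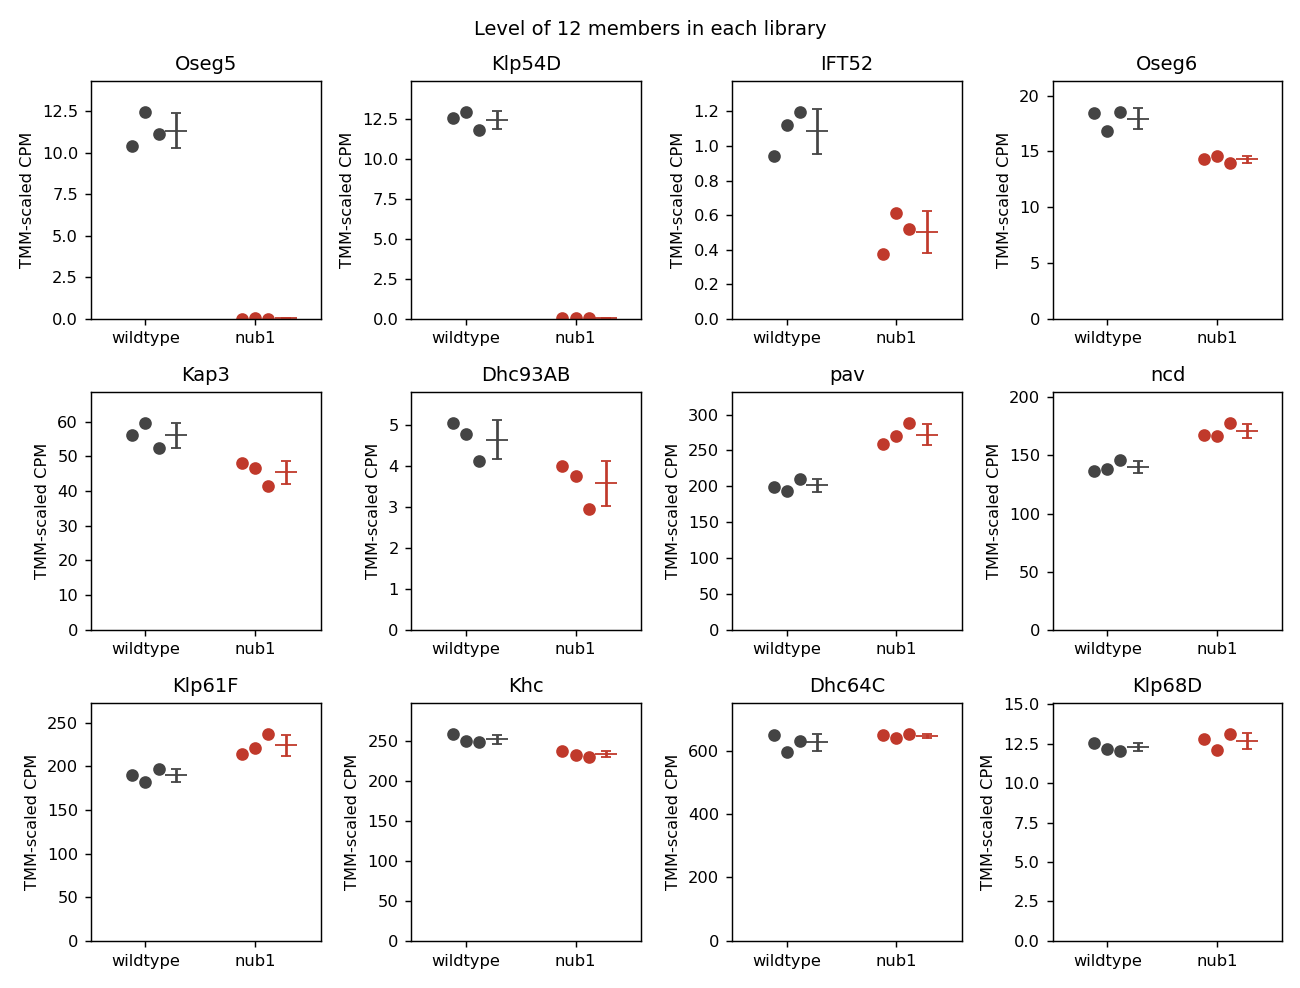
Level in each library (points, TMM-scaled CPM, axes from 0) of 12 genes in wildtype and nub1 discs, with the mean and SD of 3 libraries as a bar beside the points. Oseg5 and Klp54D sit near 0 in all nub1 libraries, IFT52, Oseg6, Kap3 and Dhc93AB are lower without overlap, pav, ncd and Klp61F are higher without overlap, and Dhc64C and Klp68D overlap.

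Of the 11 kinesins of the spindle and of cytokinesis that were tested, 7 rose by modest amounts. The largest rise was that of pav (FBgn0011692; dm6 arm 3L, 4242734 to 4246233), the kinesin-6 that bundles the central spindle and is needed for cytokinesis, with 199, 194 and 210.4 CPM in the wildtype libraries (replicates 1 to 3) and 258, 270.2 and 288 CPM in the nub1 ones. All nub1 libraries lay above all wildtype ones, and the rise was 35.3% (log2 fold change 0.44 ± 0.046, SE; edgeR adjusted p = 9.52e-05). Its partner in the centralspindlin complex, tum, rose by 17.7%, and the count of pav over that of tum was 1.4, 1.38 and 1.36 in wildtype and 1.56, 1.59 and 1.6 in nub1, in replicate order. Every nub1 ratio exceeded every wildtype ratio, a pair chosen after the values were seen and given without a test.

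Next came ncd (FBgn0002924; dm6 arm 3R, 29804290 to 29807127), the minus-end directed kinesin that focuses spindle poles, at 137, 138 and 146 CPM in the wildtype libraries (replicates 1 to 3) and 167, 167 and 178 CPM in the nub1 ones, a rise of 21.6% with no overlap (log2 fold change 0.28 ± 0.037; edgeR adjusted p = 0.000331). The kinetochore kinesins cana and cmet, neighbours on 2L that resemble the vertebrate CENP-E, rose by 20.3% and 13.1%. Values of cana (FBgn0040233; dm6 arm 2L, 11269780 to 11277846) were 93.4, 87.3 and 94 CPM in the wildtype libraries (replicates 1 to 3) and 109, 110.2 and 112 CPM in the nub1 ones (log2 fold change 0.27 ± 0.034; edgeR adjusted p = 0.000243), again without overlap between groups, and for cmet the adjusted p was 0.0103. Because cana and cmet are related neighbours, reads could be split between them. The depolymerase Klp10A, with the highest CPM of the mitotic kinesins, was 312, 302 and 314 CPM in the wildtype libraries (replicates 1 to 3) and 353, 355 and 354 CPM in the nub1 ones. Its nub1 values were close together and all above wildtype (log2 fold change 0.19 ± 0.026; edgeR adjusted p = 0.000357). Klp61F, the kinesin-5 that pushes spindle poles apart, rose by 17.9%, from 189.8 to 224 CPM (edgeR adjusted p = 0.00213).

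Subito (sub), a kinesin of the meiotic spindle, had groups that overlapped and a call near the threshold (log2 fold change 0.24 ± 0.079; edgeR adjusted p = 0.0427). Any of 4 libraries decided it (edgeR adjusted p = 0.122 leaving out wildtype replicate 1, 0.12 leaving out wildtype replicate 2, 0.105 leaving out nub1 replicate 2 and 0.102 leaving out nub1 replicate 3), and it was also lost with no filter beyond 1 count (edgeR adjusted p = 0.12). Of those not called, Klp3A, a chromokinesin, was 175 ± 8.66 CPM in wildtype against 186 ± 3.54 CPM in nub1 (SD, n = 3). Its edgeR adjusted p was 0.0752. Klp3A was called without wildtype replicate 3, with library size only, with the upper quartile and with the replicate block (edgeR adjusted p = 0.0323, 0.0377, 0.0363 and 0.0165). The depolymerase Klp67A, the chromokinesin nod and the cytokinesis kinesin neb had log2 fold changes of 0.024 ± 0.046, 0.027 ± 0.036 and 0.029 ± 0.032, with edgeR adjusted p values of 0.688, 0.555 and 0.479. Without nub1 replicate 3 the first and second of these were -0.018 and -0.0014. The count of pav over that of Klp67A was 2.01, 2.05 and 2.09 in wildtype and 2.77, 2.69 and 2.72 in nub1, in replicate order. This pair was chosen after the values were seen, as the tested mitotic kinesins with the largest and smallest log2 fold change, and is a description without a test. Much of nod and neb, 44.6% and 41.6% of their length, lies over other annotated genes, pkm and fok. Over the mitotic kinesins tested the median deviation from the wildtype mean was 0.13, 0.20 and 0.24 on the log2 scale in nub1 replicates 1 to 3, highest in replicate 3, and -0.00024, -0.053 and 0.055 in wildtype. Without nub1 replicate 3 the count of mitotic kinesins called higher was 6, and that of ciliary genes called lower was 6.

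Of 18 tested spindle and mitosis genes that are not motors 12 rose, 1 fell and 5 were not called, beside 24.4% higher and 23.9% lower over all genes tested, and their median log2 fold change was 0.14. The spindle gene mars rose from 88.7 to 113 CPM (edgeR adjusted p = 0.000255), Incenp from 216 to 250.4 CPM (edgeR adjusted p = 0.000813) and the checkpoint gene mad2 from 33.5 to 39.7 CPM (edgeR adjusted p = 0.0018). The exception was aurB, the kinase that works in a complex with Incenp, which fell from 86.7 to 64.8 CPM, by 0.42 on the log2 scale (edgeR adjusted p = 2.34e-05).

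**Figure D4:**
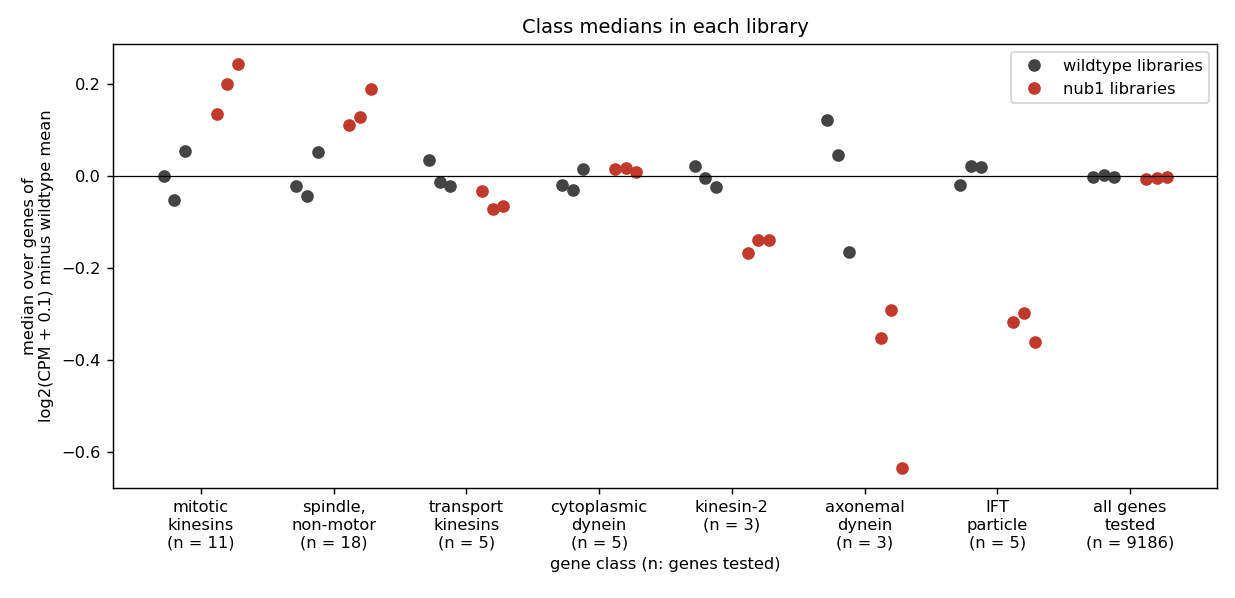
Median over the tested genes of a class of log2(CPM + 0.1) minus the gene's wildtype mean (y axis), 1 point for each library, with classes on the x axis. Mitotic kinesins and other spindle genes lie above 0 in all nub1 libraries, kinesin-2, axonemal dynein and IFT particle genes lie below it, and cytoplasmic dynein and all genes tested stay near 0.

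Among the 3 role classes transport motors had the median log2 fold change nearest 0, and it turned positive with library size only (0.016) and the upper quartile (0.0012). Khc, the heavy chain of kinesin-1 that carries organelles and RNA, was 259, 249.7 and 248 CPM in the wildtype libraries (replicates 1 to 3) and 237, 233 and 229.7 CPM in the nub1 ones; all nub1 values were below all wildtype values, and Khc fell by 7.43% (log2 fold change -0.11 ± 0.028, SE; edgeR adjusted p = 0.00985), which was lost with library size only (edgeR adjusted p = 0.0536). Its light chain gene Klc was 118 ± 1.45 CPM in wildtype against 113 ± 1.65 CPM in nub1 (SD, n = 3; edgeR adjusted p = 0.102). The endosome kinesin Klp98A was 99.96, 95.1 and 92.1 CPM in the wildtype libraries (replicates 1 to 3) and 92, 88.4 and 84.5 CPM in the nub1 ones, and the groups barely separated. It fell by 7.76% (edgeR adjusted p = 0.0401), a call that any of 4 libraries decided (edgeR adjusted p = 0.157 leaving out wildtype replicate 1, 0.0948 leaving out wildtype replicate 2, 0.103 leaving out nub1 replicate 2 and 0.115 leaving out nub1 replicate 3). The call was also lost with library size only (0.101), the upper quartile (0.06) and the stricter filter of at least 5 CPM (0.0509), all edgeR adjusted p. With any 1 of those 4 libraries left out, 1 transport motor was called lower. Khc-73, a kinesin-3, was at -0.042 ± 0.026 on the same scale (edgeR adjusted p = 0.214). For unc-104, the kinesin-3 that carries synaptic vesicle precursors, it was 0.089 ± 0.036 (edgeR adjusted p = 0.0662). It was called without wildtype replicate 1, with library size only, with the upper quartile and with the replicate block (edgeR adjusted p = 0.0487, 0.0176, 0.039 and 0.0441).

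Subunits of cytoplasmic dynein showed no called change, with 0 of 5 past the edgeR threshold, 0 at an unadjusted p under 0.05 and 0 by DESeq2. The light chain gene ctp, with the highest CPM of the transport motors, was 646, 656 and 663 CPM in the wildtype libraries (replicates 1 to 3) and 619, 647 and 653 CPM in the nub1 ones, and its groups overlapped (log2 fold change -0.033 ± 0.029; edgeR adjusted p = 0.384). Its near copy Cdlc2 had 0 counts in all 6 libraries. The heavy chain gene Dhc64C was 626 ± 26.5 CPM in wildtype against 647 ± 5.99 CPM in nub1 (SD, n = 3), and the log2 fold changes of the intermediate chain gene sw, the light intermediate chain gene Dlic and the light chain gene robl were 0.061 ± 0.045, 0.0036 ± 0.027 and -0.0014 ± 0.033. Only sw was called under another setting, without wildtype replicate 3 (edgeR adjusted p = 0.0352).

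Of 20 tested genes of dynactin and of adaptors of dynein or kinesin-1, 8 rose and 2 fell. The share called was near the 48.3% of all genes tested, with a median log2 fold change of 0.039. The dynein regulator nudE rose from 68.8 to 92 CPM (edgeR adjusted p = 2.23e-06), the dynactin subunit gene DCTN3-p24 from 26.1 to 37.3 CPM (edgeR adjusted p = 2.54e-06) and Spindly, which recruits dynein to kinetochores, from 54 to 68.4 CPM (edgeR adjusted p = 6.19e-05). Among the falls was syd, an adaptor of kinesin-1, from 68.4 to 59.6 CPM (edgeR adjusted p = 0.000318).

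Besides Klp54D, both other kinesins tested outside the role classes rose. Costal-2 (cos, FBgn0000352; dm6 arm 2R, 7382176 to 7387115) is a kinesin relative that serves as the scaffold of Hedgehog signal transduction. It was 144, 142 and 146 CPM in the wildtype libraries (replicates 1 to 3) and 159, 158 and 159 CPM in the nub1 ones, a rise of 10.2% with no overlap between groups (log2 fold change 0.14 ± 0.025, SE; edgeR adjusted p = 0.00185). Klp31E was 22.9, 21.4 and 23.1 CPM in the wildtype libraries (replicates 1 to 3) and 24.3, 24.3 and 24.7 CPM in the nub1 ones, also without overlap (log2 fold change 0.12 ± 0.04; edgeR adjusted p = 0.0342). Again any of 4 libraries decided the call (edgeR adjusted p = 0.0741 leaving out wildtype replicate 2, 0.0673 leaving out nub1 replicate 1, 0.0832 leaving out nub1 replicate 2 and 0.0804 leaving out nub1 replicate 3), which was also lost with DESeq2 (adjusted p = 0.0673).

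**Figure D5:**
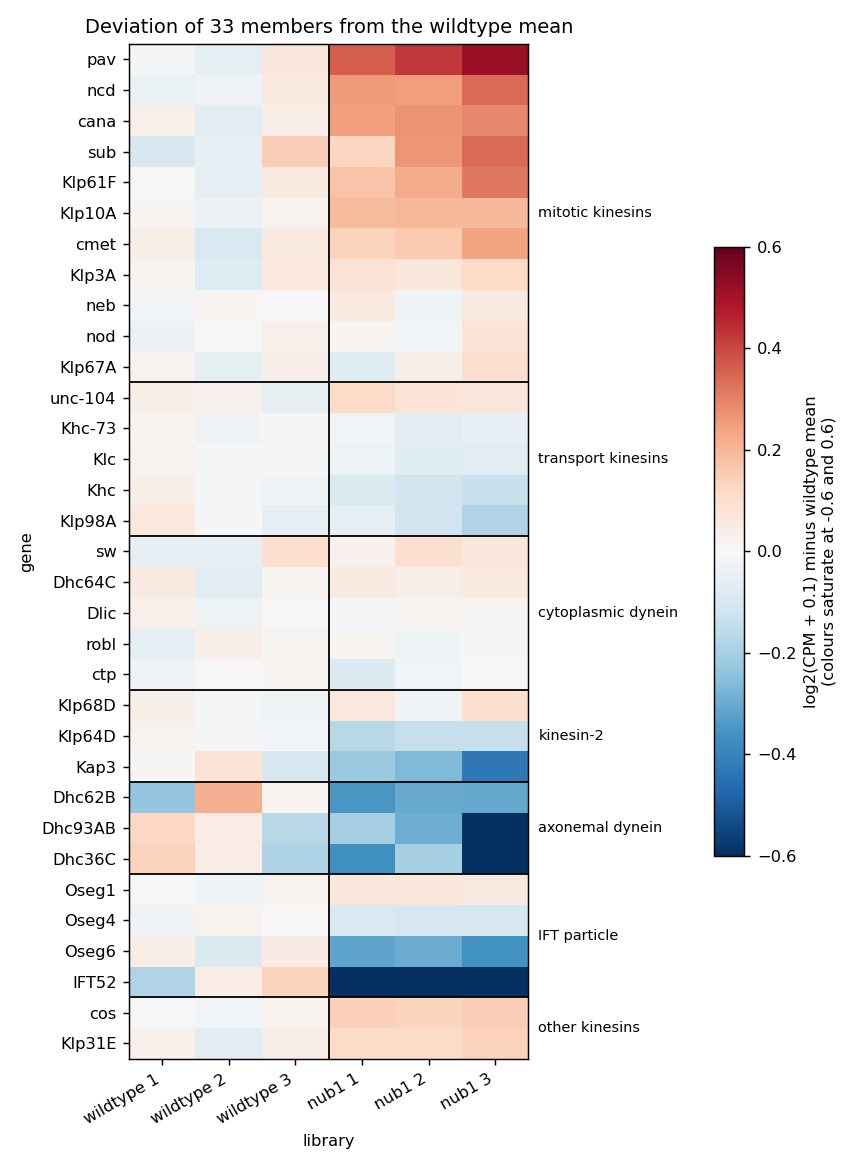
Log2(CPM + 0.1) of each tested gene except Oseg5 and Klp54D (rows, by class) in each library (columns), minus the mean of the 3 wildtype libraries; red is higher and blue lower, and colours saturate at -0.6 and 0.6. Most mitotic kinesins are red and most ciliary genes blue in all nub1 libraries, strongest in replicate 3 for pav, Kap3 and Dhc93AB, while cytoplasmic dynein rows stay pale.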

How the data were processed

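Only the RNA libraries were analysed here, not the ATAC-seq and ChIP-seq samples. The deposited table holds raw counts per gene with no normalization by the authors. The RNA kit was directional, per the labels. Per the submitters' processing notes, the tools included HISAT2, featureCounts, bcl2fastq, Bowtie2 and deepTools, and the build was dm6. Their versions and roles, and whether counting used strand, are not stated.

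Of 17807 gene IDs, 17710 matched a symbol. Positions are those of RefSeq for Release 6, the assembly of dm6. Genes passing filterByExpr (9186) went through TMM scaling and edgeR's quasi-likelihood test (robust), with genotype as the term and Benjamini-Hochberg adjustment over all of them; a call is an adjusted p under 0.05. The SE is the log2 fold change over the square root of F. Lists are described by counts and medians, with no set test. Transcript lengths were not used here. Software was edgeR 4.0.16 and DESeq2 1.42.0 in R 4.3.3, with figures from matplotlib 3.10.9. The code was tested on simulated counts.

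The genes, role classes and lists were chosen with earlier results of these data known. Values in every library are given for genes called with a fold of at least 2, the member with the highest CPM of each class and up to 3 called members per class with the smallest adjusted p; of other lists up to 4 called members with the smallest adjusted p are named. Kap3, tum, Cdlc2, rempA, further called markers and the neighbours of Oseg5 and Klp54D were added after values were seen. Of these neighbours 1 is not reported here. The list symbols IFT22, IFT74 and nos matched no single row. Alternatives were other scalings and filters, DESeq2, a block on replicate number and each library left out in turn.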

Additional observations from a re-analysis of the deposited data

How the results depend on the processing

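Of the 19 genes called, 13 kept their call and direction under every alternative in which they were tested, 6 lost it under at least 1 (sub, Khc, Klp98A, Dhc93AB, Oseg4 and Klp31E), and 5 of the 16 not called were called under at least 1. Among the 13 are Oseg5 and Klp54D, which passed the filter through the wildtype libraries alone, so their direction was fixed and their stability adds nothing. No called gene changed direction. Direction changed only in genes near 0: robl, at -0.0014, was 0.0011 with RLE scaling, 0.031 with library size only, 0.017 with the upper quartile, 0.0037 with no filter, 0.0016 with at least 5 CPM in 3 libraries, 0.0011 with DESeq2 and -0.024 to 0.021 with each library left out, and with a library left out Klp67A ranged from -0.018 to 0.073, nod from -0.0014 to 0.050 and Dlic from -0.0096 to 0.023. Transport motors called higher were 1 and not 0 with library size only, with the upper quartile and with the replicate block, and 0 to 1 with a library left out; those called lower were 0 with library size only, 1 with the upper quartile, 1 with the stricter filter and 1 to 2 with a library left out. Ciliary genes called higher were 1 with library size only and 1 with the upper quartile. The median log2 fold change of transport motors was 0.016 with library size only and 0.0012 with the upper quartile, and that of ciliary genes was -0.15 with the stricter filter, which tests fewer genes, and -0.34 to -0.25 with a library left out. Replicate numbers 1 and 2 did not pair the libraries (same-number correlations of deviations 0.0426 and 0.0346), and not every library correlated best with its own number. For replicate 3 the same-number correlation was the highest, 0.248, and those with other numbers were -0.193, -0.123, -0.0962 and -0.145. Whether replicate 3 of both groups shares a batch is not stated. With the replicate block 11 of these genes were higher and 11 lower. Over all genes the block gave 2451 higher and 2437 lower, where genotype alone gave 2239 and 2195. Scaling by library size alone moved the median of all genes to 0.029. Levels per transcript length were not run. Low counts limit Dhc36C, IFT52 and the 6 genes not tested.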
